A study of Mus musculus with 12 samples.

Results

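The 10 genes described here are the BCL2 family genes that set whether a T cell survives or dies: Bcl2, Bcl2l1, Mcl1, Bcl2l11, Bbc3, Pmaip1, Bax, Bak1, Bid and Bad. They were chosen by gene symbol, with earlier results of these data known, from the 55228 symbols for which RNA was measured, and all 10 passed the filter on low values (a mean of at least 1 TPM, a measure of RNA corrected for transcript length and library size) that left 15043 genes for testing. RNA was sequenced from 12 libraries of cultured mouse regulatory T cells (Tregs), 3 in each of 4 groups. The cells came from a pool of lymph nodes of 16 NOD.Foxp3-GFP mice, an autoimmune-prone strain with a green reporter of Foxp3, and were sorted as Foxp3.GFP+CD25+. All groups were transduced on day 2 after activation with a retroviral vector that expresses the surface reporter Thy1.1, and the Thy1.1+ fraction was purified on day 9. EV no IL-2 Tregs carried the empty vector and were washed out of IL-2 on day 4 for 5 further days. EV+IL-2 Tregs carried the same empty vector and stayed in medium with IL-2. 1G12t and 3A10t Tregs carried a construct in which the orthogonal IL-2 variant 1G12 or 3A10, engineered to act on a matching receptor, is tethered to the orthogonal IL-2 receptor β chain, and were washed out of IL-2 like the EV no IL-2 cells. The CD4+ cells were split into 3 equal portions, each sorted on its own machine, activated by itself and only then shared out among the constructs, so the replicates of a group were separate cultures of one pool of cells and not separate animals. The p-values therefore measure the spread between these cultures, and a replicate number names the same sort in every group.

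The family works at the outer membrane of the mitochondrion. Of its anti-apoptotic proteins, Bcl2, Bcl-xL (the product of Bcl2l1) and Mcl1 are among the members described here, and they hold the effectors Bax and Bak (Bak1) in check. The BH3-only proteins Bim (Bcl2l11), Puma (Bbc3), Noxa (Pmaip1), Bid and Bad bind the anti-apoptotic members or, as Bim, Bid and Puma can, act on the effectors directly. Once Bax and Bak form pores, cytochrome c leaves the mitochondrion and caspases are activated. IL-2 and related cytokines are known to raise Bcl2 in T cells through STAT5, and loss of these cytokines is a classical trigger of Bim-dependent death. In Tregs, Mcl1 and Bim are known as a pair that sets how many cells persist. Protein level, phosphorylation and the location of Bax were not measured here, and these regulate much of the family's activity.

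Of the 10 members, 3 rose in EV+IL-2 Tregs against EV no IL-2, where 8.17% of all genes tested did, and their promoters are shown for that reason. For each, the 250 bases before the RefSeq start of transcription nearest the annotated gene start are given. They run 5′ to 3′ on the minus strand of GRCm38.p6, the strand of the gene. The Bcl2 window lies at chr1:106714291-106714540, the Bcl2l1 window at chr2:152831729-152831978 and the Bax window at chr7:45466899-45467148. Capitals mark the GC box GGGCGG on either strand in Bcl2 and the E-box CACGTG, a sequence that Myc family factors bind, in Bax.
Bcl2: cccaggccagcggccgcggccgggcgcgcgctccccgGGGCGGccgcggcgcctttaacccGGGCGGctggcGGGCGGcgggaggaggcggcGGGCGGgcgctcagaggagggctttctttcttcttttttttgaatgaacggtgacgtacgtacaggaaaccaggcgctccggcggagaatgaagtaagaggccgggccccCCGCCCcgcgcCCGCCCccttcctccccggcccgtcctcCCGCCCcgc
Bcl2l1: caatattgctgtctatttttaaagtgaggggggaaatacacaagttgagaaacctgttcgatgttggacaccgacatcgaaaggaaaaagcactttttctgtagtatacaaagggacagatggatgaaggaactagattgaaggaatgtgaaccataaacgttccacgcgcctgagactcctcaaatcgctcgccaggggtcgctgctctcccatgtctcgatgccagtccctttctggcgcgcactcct
Bax: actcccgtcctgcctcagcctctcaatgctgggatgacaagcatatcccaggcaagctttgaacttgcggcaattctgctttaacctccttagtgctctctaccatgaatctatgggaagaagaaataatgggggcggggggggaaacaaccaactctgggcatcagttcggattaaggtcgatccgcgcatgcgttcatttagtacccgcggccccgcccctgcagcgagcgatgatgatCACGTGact

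The Bcl2 window held 7 GC boxes and was 74.8% G and C. The Bcl2l1 window held none of the motifs searched and was 47.6% G and C. The Bax window held 1 E-box and 2 GC boxes, and was 54% G and C. Of 32851 RefSeq windows of this length, 32.7% held a GC box and 6.02% an E-box, both strands counted. A STAT site, TTCNNNGAA, stood in 7.02% of all windows and in none of the 9 windows found for members. A forkhead site, TGTTTAC, stood in 3.17% of all windows and, among the members, in that of Bcl2l11, which held 1. A match is a description of the letters in this window, and sites farther away were not searched. RefSeq lists 3 promoters each for Bcl2l1 and Bbc3 and 2 each for Bcl2l11 and Bad. Only the promoter nearest the annotated gene start was searched for members, so a missing motif describes that window and not the gene.

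The libraries were checked before the members were compared. The EV+IL-2 libraries had 30393, 32422 and 36239 genes above 0 TPM, fewer than any library of the other groups (37930 to 43285). The part of this in the differences of EV+IL-2 was not tested. Foxp3 lay between 369 and 509.8 scaled TPM in the 12 libraries (TPM divided by a median-of-ratios factor per library, the scale of all levels below). It was lowest in 3A10t, at 408 ± 49.2 TPM (SD, n = 3) with no library above 463 TPM. No library of the other groups lay below 484 TPM. Of 6 Treg markers (Foxp3, Il2ra, Ikzf2, Ctla4, Cd4 and Cd3e), 2 had a positive difference of 3A10t from EV no IL-2. Of 10 markers of other cells, Ms4a1 of B cells, Lyz2, S100a8, S100a9 and Csf1r of myeloid cells and Cd8a of CD8 T cells averaged below 1 TPM over the libraries. The other 4 averaged higher, with the B cell genes Cd79a at 1.42 TPM and Cd79b at 9.27 TPM, the CD8 T cell gene Cd8b1 at 4.34 TPM and Cst3, which is not specific to myeloid cells, at 542 TPM. The scaling factors ran from 0.854 to 1.09. The top 10 genes held 10.8% to 13.5% of TPM in 3A10t libraries and 8.85% to 9.92% in other groups. All 3A10t libraries shared this shift, so it goes with the group in every comparison of 3A10t, and its part there was not tested. Among them 3A10t replicate 2 stood apart most, with the lowest factor and the highest share, 13.5%. That library also had the lowest summed Treg markers, 1596 TPM, and the highest sums of the other lists. Its summed myeloid markers came to 764 TPM (441 to 581 TPM in the other 11 libraries), almost all of it Cst3, its B cell markers to 16.0 TPM (8.34 to 12.9 TPM) and its CD8 T cell markers to 6.51 TPM (3.45 to 5.76 TPM). 3A10t replicate 3 had the next lowest Treg marker sum, 1752 TPM, and the next highest myeloid sum, 581 TPM. Its B cell and CD8 T cell sums lay among those of the other groups. The part of these marker sums in the results was not tested. Named differences of 3A10t that lost or gained a call, or moved by over 1.5 times, without this library are given both ways. A lower level in these bulk samples can mean less RNA per cell or fewer cells with the RNA, which cannot be told apart.

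Levels were set side by side between genes because TPM are divided by transcript length. Bax had the highest level of the family, 583 TPM on average over the 12 libraries, above 98.6% of the genes tested. Bcl2 followed at 172 TPM, Mcl1 at 122 TPM and Bbc3 at 117 TPM, with Bcl2l1 at 61.9 TPM, Bad at 48.2 TPM, Pmaip1 at 32.9 TPM and Bid at 19.2 TPM. Bcl2l11 averaged 12.4 TPM, near the middle of all genes tested (above 48.8% of them). Bak1 averaged 2.92 TPM, above 24.3% of genes. In TPM, the effector RNA of these Tregs was thus almost entirely Bax, and among the BH3-only genes Bbc3 made up 48% to 55.2% of the summed TPM in every library. Bax and Bak1 each overlap another annotated gene, as given below, and the part of this in their levels was not tested.

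**Figure D1:**
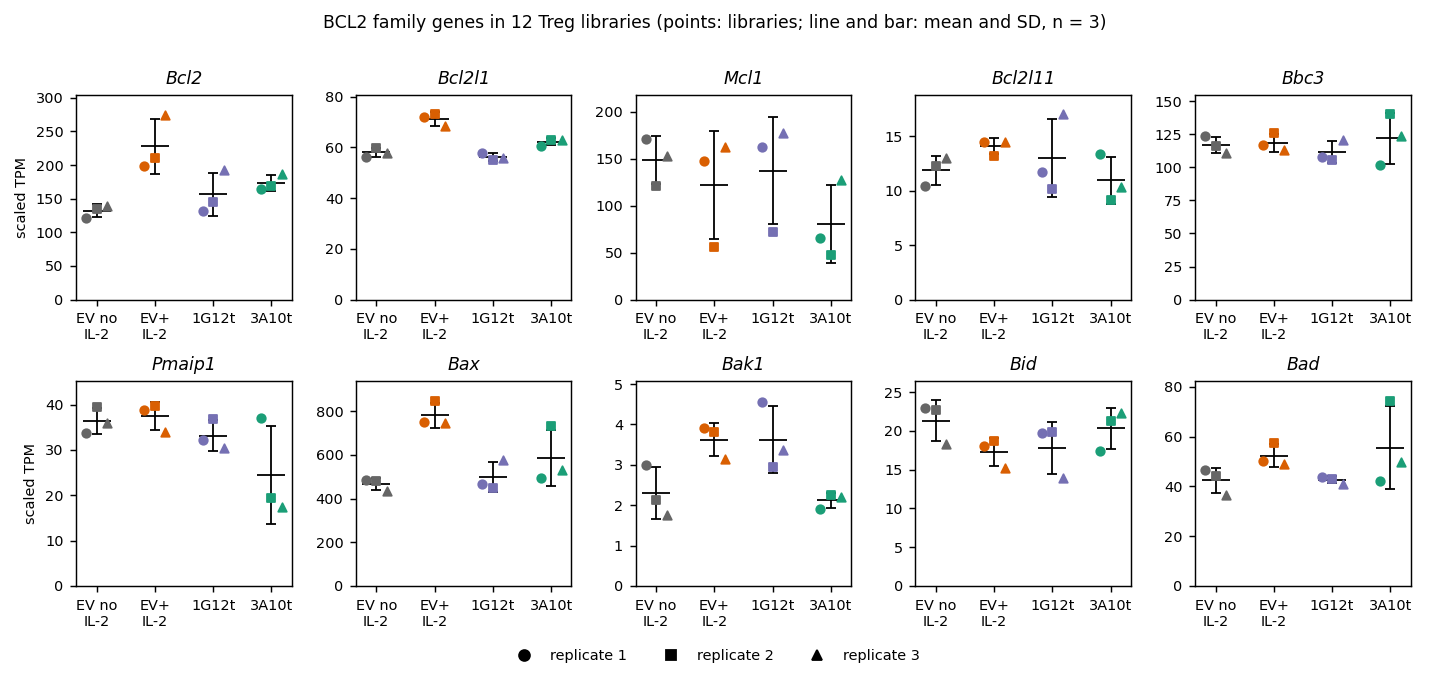
Scaled TPM (vertical axes, each from 0) of the 10 members in the 4 groups. Points are libraries, shaped by replicate number, with the mean and SD of 3. Bcl2, Bcl2l1 and Bax have their 3 EV+IL-2 libraries above the 3 of EV no IL-2, and the Mcl1 points of replicate 2 (squares) are the lowest of each group.

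Differences between groups were tested with limma on log2(TPM + 1) across all genes, and a gene was called at a Benjamini-Hochberg adjusted p under 0.05. EV+IL-2 against EV no IL-2 gave 3 of 10 members called higher, Bcl2, Bcl2l1 and Bax (2 anti-apoptotic members and 1 effector of death), and 0 lower, where 8.17% of all genes tested were called higher and 13.3% in either direction. With 6 of 10 members, all 3 EV+IL-2 libraries lay above all 3 of EV no IL-2, as they did for 19.6% of genes tested. Of these members, Bcl2l11 overlapped on the TPM as deposited, before the scaling. The median difference of the members was 0.26, beside −0.01 over all genes tested. With 1 sort left out of every group, which leaves 8 libraries, the count of called members was 0 without replicate 1, 1 (Bax) without replicate 2 and 1 (Bcl2) without replicate 3, while the log2 differences of these 3 genes stayed between 0.26 and 0.84. Of all genes, 5.69%, 5.77% and 5.15% were called in these 3 fits, beside 13.3% with every library.

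In 3A10t against EV no IL-2, 0 of 10 members passed limma's adjusted threshold, where 2.05% of genes did. Of the members, 2, Bcl2 and Pmaip1, had an unadjusted p under 0.05, a cutoff at which the share of all genes was not counted. The share of all genes called turned on single 3A10t libraries, at 23.1% without 3A10t replicate 1, 0.279% without replicate 2 and 0.206% without replicate 3. At the authors' threshold, an unadjusted p under 0.01 with a log2 difference beyond 0.25, the count was also 0, where 9.5% of genes passed. With a term for the replicate number, called the replicate block below, it was 2, Bcl2 higher and Mcl1 lower. The share of all genes at the authors' threshold was not counted with the block. At the adjusted threshold the block moved that share from 2.05% to 2.67%. For Bcl2, Bcl2l1 and Bax, 3 of 10, every 3A10t library exceeded the EV no IL-2 libraries, beside 13.3% of genes. On the TPM as deposited, the libraries of all 3 genes overlapped, and the share of all genes was not counted there. The separation of these genes therefore rests on the scaling. The median difference was −0.01, beside 0.03 over all genes.

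For 1G12t and EV no IL-2, 0 of 10 passed with limma, where 0.0199% of genes did. With an unadjusted p under 0.05 there was 1, Bak1, and the share of all genes at that cutoff was not counted. No member had its 1G12t libraries apart from those of EV no IL-2, in either direction, where 16.5% of genes did. The median difference of the members was −0.02.

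**Figure D2:**
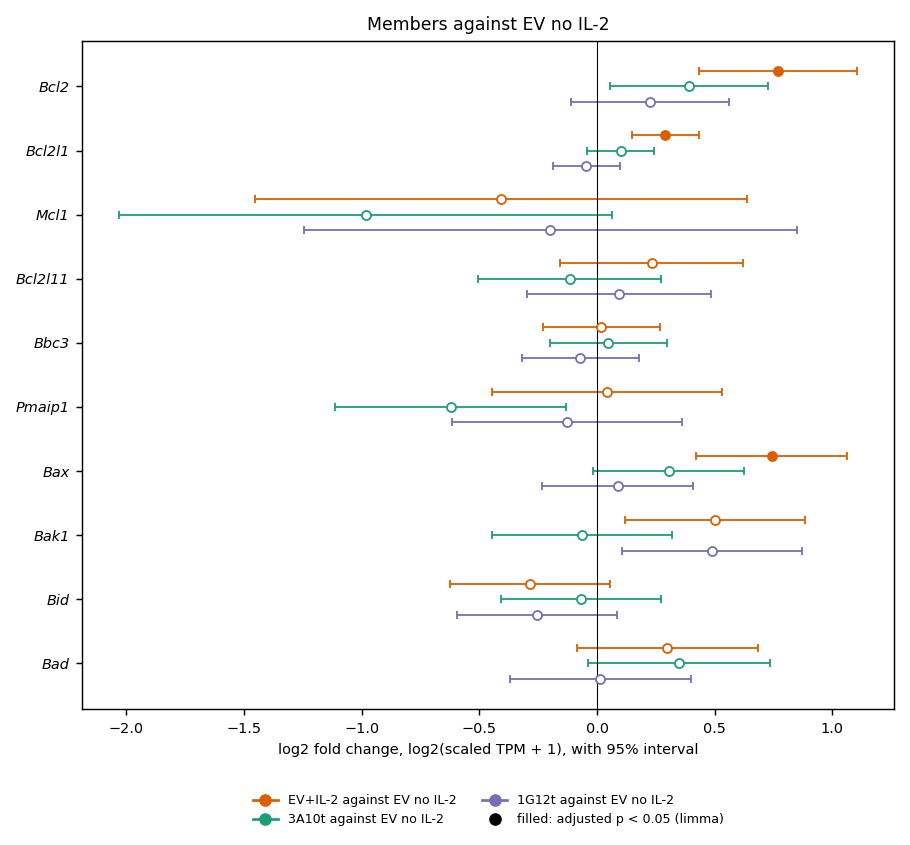
Log2 differences of the 10 members from EV no IL-2 (horizontal axis, log2 of scaled TPM + 1, with 95% intervals from limma, n = 3 a group) in EV+IL-2, 3A10t and 1G12t. Filled points passed the adjusted threshold, which Bcl2, Bcl2l1 and Bax did in EV+IL-2.

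In 3A10t against 1G12t, 0 of 10 members passed with limma, where 4.27% of genes did. With an unadjusted p under 0.05 there were 3, Bcl2l1, Pmaip1 and Bak1, and the share of all genes at that cutoff was not counted. At the authors' threshold 1 member, Bak1, was lower in 3A10t, where 7.06% of genes were. Bcl2l1 was the member whose 3A10t libraries all lay above those of 1G12t, and Bak1 the one whose libraries all lay below, beside 13.7% and 12.5% of genes. On the TPM as deposited, the Bcl2l1 libraries of the tethers overlapped.

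Against EV+IL-2, 1G12t had 3 of 10 members lower with limma, Bcl2, Bcl2l1 and Bax, where 10.9% of genes were lower. 3A10t had 1 lower, Bak1, where 13% of genes were, and 2 with the replicate block, which added Bcl2. In either direction 24.7% of all genes were called with the block in that comparison, beside 23.4% without it. In 4 of 10 members all 3A10t libraries lay below those of EV+IL-2, beside 18% of genes, and in 4 of 10 all 1G12t libraries did, beside 22%. The comparisons with EV+IL-2 share its libraries, as those with EV no IL-2 share theirs, so they do not repeat each other independently.

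Among the anti-apoptotic members, Bcl2 (ENSMUSG00000057329.7, chr1:106538178-106714274, minus strand) had the largest difference between EV+IL-2 and EV no IL-2. It measured 121, 135 and 139.8 TPM in EV no IL-2 and 199, 211 and 274 TPM in EV+IL-2. In 3A10t it measured 164, 169 and 186 TPM, and in 1G12t 131, 145 and 193 TPM. The EV+IL-2 libraries lay above every library of the other groups, the 3A10t libraries lay between the EV no IL-2 and the EV+IL-2 libraries without overlap, and the 1G12t libraries overlapped both EV no IL-2 and 3A10t. On the TPM as deposited, 3A10t replicate 2, at 144 TPM, lay below EV no IL-2 replicate 3, at 150 TPM. There 1G12t replicate 3, at 210 TPM, lay above EV+IL-2 replicate 1, at 197 TPM.

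By group, Bcl2 averaged 228 ± 40.6 TPM in EV+IL-2, 173 ± 11.7 TPM in 3A10t, 156 ± 32.1 TPM in 1G12t and 132 ± 9.53 TPM in EV no IL-2 (SD, n = 3). Against EV no IL-2 it rose in EV+IL-2 by 0.77 on the log2(TPM + 1) scale (SE 0.152, limma adjusted p = 0.0066). The 3A10t difference was 0.39 (95% interval 0.053 to 0.73) and did not pass, with a limma adjusted p of 0.15, or 0.059 with the replicate block. With the block and a correction for transcript length together, that adjusted p was 0.023 and the difference 0.61. On the TPM as deposited the difference was 0.24. Of 26 alternative fits, 1 passed. In 1G12t the difference from EV no IL-2 was 0.23 (−0.11 to 0.56), with a limma adjusted p of 0.75, and it was 0.067 without 1G12t replicate 3 and 0.14 with length correction.

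Set directly against each other, the tethers gave no called difference in Bcl2, except with length correction and the replicate block together. The difference of 3A10t minus 1G12t was 0.16 (−0.17 to 0.50, limma adjusted p = 0.49), and −0.028 on the TPM as deposited, so its direction rests on the scaling. With length correction it was 0.47, with a limma adjusted p of 0.077, or 0.039 with both. Against EV+IL-2, Bcl2 was lower in 1G12t by a log2 difference of −0.54 (limma adjusted p = 0.028). That call was lost in turn without EV+IL-2 replicate 2 (0.056), EV+IL-2 replicate 3 (0.095), 1G12t replicate 1 (0.095) and 1G12t replicate 2 (0.089), and also on the TPM as deposited (0.096), after quantile normalization (0.14) and with only the 6 libraries compared (0.10). In 3A10t the difference from EV+IL-2 was −0.38, with a limma adjusted p of 0.094, which became 0.019 with the replicate block. With length correction that difference was −0.18, and its adjusted p was 0.36 without the block and 0.15 with it.

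The replicate number marked the Bcl2 level in every group. Replicate 1 was the lowest library in 4 of 4 groups, as it was for 4.07% of the genes tested. Replicate 3 was the highest in 4 of 4 groups. Within each of the 3 sorts EV+IL-2 had the most Bcl2 RNA and EV no IL-2 the least. 3A10t stood above 1G12t in the sorts numbered 1 and 2 and below it in 3, at 186 against 193 TPM. The standard error of a Bcl2 difference fell from 0.152 without the block to 0.092 with it.

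**Figure D3:**
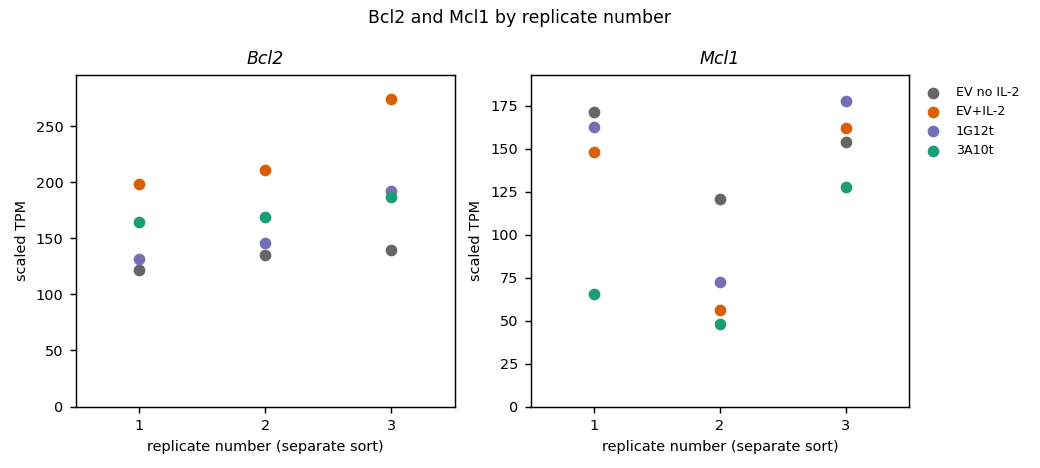
Scaled TPM (vertical axes) of Bcl2 and Mcl1 against the replicate number (horizontal axes), which names a separate sort and activation of one cell pool. Points are libraries, coloured by group. EV+IL-2 has the highest and EV no IL-2 the lowest Bcl2 in each sort, and for Mcl1 all 4 groups are lowest in the sort numbered 2.

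Bcl2l1 (ENSMUSG00000007659.18, chr2:152780668-152831728, minus strand), which encodes Bcl-xL, moved less but with a much smaller spread. Its libraries measured 56.4, 59.8 and 57.9 TPM in EV no IL-2, 71.9, 73.4 and 68.3 TPM in EV+IL-2, 57.8, 55.1 and 55.7 TPM in 1G12t and 60.7, 63.1 and 63.0 TPM in 3A10t. The EV+IL-2 libraries lay above all 9 others, and the 3A10t libraries exceeded all those of EV no IL-2 and 1G12t.

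The SD of Bcl2l1 within groups was 0.041 on the log2 scale, and only 0.0798% of the genes tested had a smaller one. It rose in EV+IL-2 against EV no IL-2 by 0.29 (SE 0.064, limma adjusted p = 0.012), a call that was lost without EV+IL-2 replicate 1 (0.053). Against EV+IL-2 it was lower in 1G12t by a log2 difference of −0.33 (limma adjusted p = 0.0045). The 3A10t difference from EV+IL-2 was −0.19, with a limma adjusted p of 0.055, and it passed under 8 of 26 alternative fits, at 0.043 without 3A10t replicate 2.

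Between 3A10t and EV no IL-2 the Bcl2l1 difference was 0.10 (95% interval −0.041 to 0.24, limma adjusted p = 0.32), and −0.046 on the TPM as deposited. Between 3A10t and 1G12t it was 0.15 (0.0040 to 0.29, limma adjusted p = 0.16), and −0.044 on the TPM as deposited. Both differences therefore changed sign with the scaling, and the libraries were without overlap on the scaled TPM only. For 1G12t the difference from EV no IL-2 was −0.04 (−0.19 to 0.097, limma adjusted p = 0.87), and 0.021 after quantile normalization.

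Mcl1 (ENSMUSG00000038612.16, chr3:95658788-95663176, plus strand), a short-lived protein that T cells need continuously, varied more between sorts than between groups. Its libraries measured 171, 121 and 154 TPM in EV no IL-2, 148, 56.1 and 162 TPM in EV+IL-2, 163, 72.5 and 177 TPM in 1G12t and 65.5, 48.0 and 128 TPM in 3A10t. Replicate 2 was the lowest library in 4 of 4 groups, as it was for 2.94% of the genes tested. Within each sort 3A10t had the lowest Mcl1, while the pooled groups overlapped.

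The SD of Mcl1 within groups was 0.67 on the log2 scale, larger than in 90.9% of genes. The 3A10t difference from EV no IL-2 was −0.98 (95% interval −2.03 to 0.063), with a limma adjusted p of 0.21, or 0.065 with the replicate block. Against 1G12t the 3A10t difference was −0.78, with a limma adjusted p of 0.29, or 0.075 with the block, and the difference was −0.48 without 3A10t replicate 2. For EV+IL-2 against EV no IL-2 the value was −0.41 (−1.45 to 0.64, limma adjusted p = 0.67), and 0.076 without EV+IL-2 replicate 2. For 1G12t against EV no IL-2 it was −0.20 (−1.25 to 0.85, limma adjusted p = 0.93), and 0.21 without 1G12t replicate 2.

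The make-up of the RNA of the anti-apoptotic members was described as shares of the summed TPM of Bcl2, Bcl2l1 and Mcl1. Bcl2 made up 34.8% to 42.8% of it for EV no IL-2, 47.4% to 62.0% for EV+IL-2, 37.3% to 53.2% for 1G12t and 49.4% to 60.3% for 3A10t. Both the EV+IL-2 and the 3A10t libraries lay above all those of EV no IL-2, and 1G12t overlapped every group. The sum itself averaged 339 ± 20.0 TPM in EV no IL-2, 421 ± 82.2 TPM in EV+IL-2, 350.1 ± 76.3 TPM in 1G12t and 316 ± 53.3 TPM in 3A10t (SD, n = 3), with overlapping libraries. Mcl1 made up 38.3% to 49.1% of the sum in EV no IL-2, 16.5% to 35.4% in EV+IL-2, 26.6% to 46.2% in 1G12t and 17.1% to 33.9% in 3A10t, so EV+IL-2 and 3A10t both lay below EV no IL-2. Bcl2l1 stayed between 13.1% and 22.5% in all libraries.

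**Figure D4:**
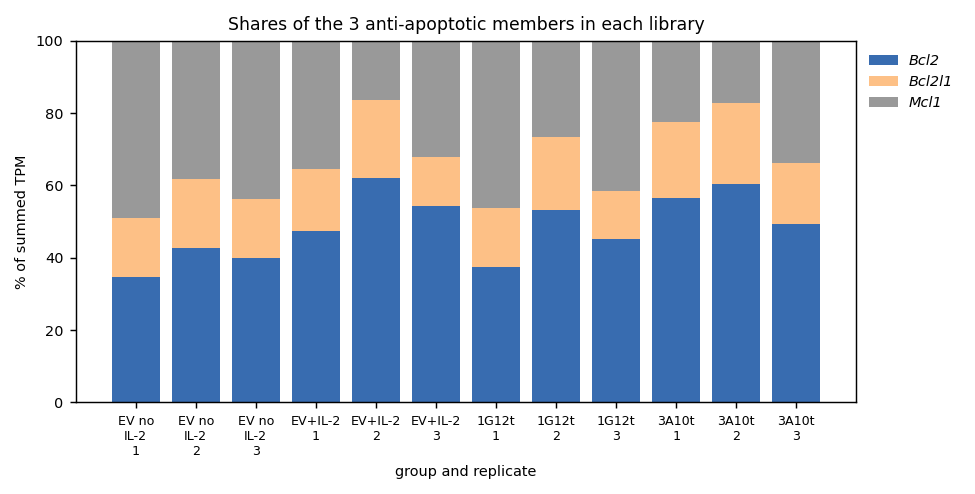
Shares of Bcl2, Bcl2l1 and Mcl1 in their summed TPM (vertical axis, %) in each library (horizontal axis, group and replicate). The Bcl2 share is 49.4% or more in each 3A10t library and 42.8% or less in each EV no IL-2 library.

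Of the effectors, Bax (ENSMUSG00000003873.11, chr7:45461697-45466898, minus strand) followed IL-2 as Bcl2 did. It measured 483, 482 and 434 TPM in EV no IL-2, 749, 848 and 748 TPM in EV+IL-2, 467, 449 and 578 TPM in 1G12t and 493, 732 and 529 TPM in 3A10t. All EV+IL-2 libraries were the highest of the 12, and 3A10t replicate 2 came next, well above the other 3A10t libraries.

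Bax rose in EV+IL-2 against EV no IL-2 by 0.74 (SE 0.145, limma adjusted p = 0.0063), from a group mean of 466 ± 28.1 to 782 ± 57.2 TPM (SD, n = 3), 1.68-fold. In 1G12t it was lower than in EV+IL-2 by a log2 difference of −0.66 (limma adjusted p = 0.0096). The 3A10t difference from EV no IL-2 was 0.30 (95% interval −0.016 to 0.62, limma adjusted p = 0.21), and 0.13 without 3A10t replicate 2. Against EV+IL-2 the 3A10t difference was −0.44 (limma adjusted p = 0.051), and −0.61 with an adjusted p of 0.0064 without that library. It passed under 9 of the 26 alternative fits. The ratio of Bax to Bcl2 overlapped between all groups, and its log2 value averaged 1.82 for EV no IL-2, 1.79 for EV+IL-2, 1.68 for 1G12t and 1.73 for 3A10t, with SDs of 0.131 to 0.331.

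Bak1 (ENSMUSG00000057789.14, chr17:27019810-27029009, minus strand) was measured at low levels. Its libraries had 3.01, 2.13 and 1.76 TPM in EV no IL-2, 3.91, 3.82 and 3.15 TPM in EV+IL-2, 4.56, 2.94 and 3.38 TPM in 1G12t and 1.91, 2.25 and 2.20 TPM in 3A10t. EV+IL-2 and 1G12t lay at like levels, both above 3A10t without overlap, and EV no IL-2 and 3A10t overlapped.

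Bak1 differed by −0.57 on the log2 scale between 3A10t and EV+IL-2, lower in 3A10t (SE 0.173, limma adjusted p = 0.038), a call that no longer passed when any 1 of the 3A10t or EV+IL-2 libraries, or EV no IL-2 replicate 2, was left out (adjusted p from 0.052 to 0.12). It also did not pass with length correction, alone (0.061) or with the replicate block (0.059). Against 1G12t it differed by −0.55 (limma adjusted p = 0.077, unadjusted p = 0.0086), and the adjusted p was 0.032 on the TPM as deposited. The EV+IL-2 difference from EV no IL-2 was 0.50 (0.12 to 0.88, limma adjusted p = 0.085), which passed at 0.042 without EV no IL-2 replicate 1. The 1G12t difference from EV no IL-2 was 0.49 (0.11 to 0.87), with a limma adjusted p of 0.70. On the log2(TPM + 1) scale the change of so low a gene is understated, and the ratio of group means was 0.584 for 3A10t against both EV+IL-2 and 1G12t.

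None of the BH3-only genes passed the limma threshold in any of the 6 comparisons with every library and no block or correction. Bcl2l11 (ENSMUSG00000027381.16, chr2:128126038-128162547, plus strand), which encodes Bim, measured 10.4, 12.2 and 13.0 TPM in EV no IL-2, 14.5, 13.2 and 14.5 TPM in EV+IL-2, 11.7, 10.2 and 17.0 TPM in 1G12t and 13.3, 9.15 and 10.3 TPM in 3A10t. The EV+IL-2 libraries all exceeded those without IL-2 in EV cells, by a log2 difference of 0.23 (95% interval −0.16 to 0.62, limma adjusted p = 0.48), and the other groups overlapped. On the TPM as deposited, EV+IL-2 replicate 2, at 12.9 TPM, lay below EV no IL-2 replicate 3, at 13.96 TPM. For 3A10t the difference from EV no IL-2 was −0.12 (−0.51 to 0.27, limma adjusted p = 0.69) and from EV+IL-2 −0.35 (−0.74 to 0.041, limma adjusted p = 0.18). Between the tethers it was −0.21 (−0.60 to 0.18, limma adjusted p = 0.44). Without 3A10t replicate 2 the differences from EV no IL-2 and from 1G12t were −0.0068 and −0.10.

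Set against Bcl2, which its product binds, Bcl2l11 RNA was the scarcer in every library. The log2 ratio of Bcl2 to Bcl2l11 averaged 3.48 ± 0.0604 without IL-2 in EV cells and 4.01 ± 0.235 with it, beside 3.61 ± 0.198 for 1G12t and 4.00 ± 0.33 for 3A10t (SD, n = 3). The EV+IL-2 and 3A10t libraries all exceeded those of EV no IL-2, and 1G12t overlapped each of the other groups. This ratio was not tested.

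Pmaip1 (ENSMUSG00000024521.8) encodes Noxa, which binds Mcl1. It measured 33.7, 39.4 and 35.9 TPM in EV no IL-2, 38.8, 39.6 and 34.0 TPM in EV+IL-2, 32.2, 36.9 and 30.5 TPM in 1G12t and 37.0, 19.3 and 17.4 TPM in 3A10t. In 3A10t replicates 2 and 3 were the lowest of the 12 libraries, while replicate 1 lay among the other groups.

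The Pmaip1 difference of 3A10t from EV no IL-2 was −0.62 (95% interval −1.11 to −0.13, limma adjusted p = 0.12). Without 3A10t replicate 1 it was −0.95 with an adjusted p of 4.8e-04. Against 1G12t the difference was −0.49 (limma adjusted p = 0.16, and 0.0012 without 3A10t replicate 1), and against EV+IL-2 −0.67 (limma adjusted p = 0.052, and 2.4e-04 without it). Without that library 23.1%, 27.3% and 34.2% of all genes tested were called in these 3 comparisons, beside 2.05%, 4.27% and 23.4% with it. Against EV no IL-2 and against 1G12t, Pmaip1 passed in 2 of 26 alternative fits, both without 3A10t replicate 1, and against EV+IL-2 in 6, of which 4 kept every library.

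Bbc3 (ENSMUSG00000002083.13, chr7:16308393-16318205, plus strand), a target of p53 that encodes Puma, was the steadiest of the group. It averaged 117 ± 6.34 TPM in EV no IL-2, 118 ± 6.58 TPM in EV+IL-2, 111 ± 8.25 TPM in 1G12t and 122 ± 19.5 TPM in 3A10t (SD, n = 3), and its limma adjusted p was 0.50 or more in all 6 comparisons. Against EV no IL-2 its 95% interval reached from −0.23 to 0.27 in EV+IL-2 and from −0.20 to 0.30 in 3A10t.

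Bid (ENSMUSG00000004446.12, chr6:120891930-120916853, minus strand), which caspase-8 cleaves to an active form, averaged 21.3 ± 2.64 TPM in EV no IL-2, 17.3 ± 1.81 TPM in EV+IL-2, 17.8 ± 3.35 TPM in 1G12t and 20.3 ± 2.63 TPM in 3A10t (SD, n = 3). Its difference from EV no IL-2 was −0.28 in EV+IL-2 and −0.26 in 1G12t, with limma adjusted p-values of 0.28 and 0.74.

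Bad (ENSMUSG00000024959.14, chr19:6941861-6951899, plus strand), which Akt and Pim kinases inactivate by phosphorylation, measured 46.4, 44.2 and 36.6 TPM in EV no IL-2, 50.4, 57.6 and 48.9 TPM in EV+IL-2, 44.0, 42.9 and 41.0 TPM in 1G12t and 42.3, 74.3 and 50.0 TPM in 3A10t. Each EV+IL-2 library exceeded each EV no IL-2 library, by a log2 difference of 0.30 (−0.086 to 0.68, limma adjusted p = 0.33). In 3A10t the highest value of all came from replicate 2, the library that stood apart most. The 3A10t difference from EV no IL-2 was 0.35 (limma adjusted p = 0.23), and 0.12 (adjusted p = 0.64) without replicate 2. Without 3A10t replicate 1, where 23.1% of all genes were called, it was 0.52 and passed at 0.045.

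Outside the members, 18 other BCL2 family and BH3-related genes were listed, and 11 passed the filter on low values. In EV+IL-2 against EV no IL-2, 2 were higher and 3 lower with limma. Over this and the 3 lists below together, 15 of 55 genes tested passed in that comparison, 27.3%, beside 13.3% of all genes tested. The lower ones were led by Bcl2a1d and Bcl2a1b, copies of the anti-apoptotic gene A1, an NF-κB target in lymphocytes. Bcl2a1b measured 54.7, 56.0 and 49.8 TPM in EV no IL-2 and 21.1, 22.9 and 21.9 TPM in EV+IL-2, while 1G12t had 49, 59.8 and 67.7 TPM and 3A10t 49.4, 78.6 and 61.4 TPM. Bcl2a1d measured 9.08, 8.71 and 8.67 TPM in EV no IL-2 and 2.81, 2.9 and 2.39 TPM in EV+IL-2, while 1G12t had 10.3, 11 and 14.5 TPM and 3A10t 8.21, 12.5 and 11.6 TPM. For both copies the EV+IL-2 libraries lay far below all 9 libraries without IL-2, in the opposite direction from Bcl2 and Bcl2l1.

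Bcl2a1b fell in EV+IL-2 by 1.25 on the log2 scale (SE 0.158, limma adjusted p = 4.0e-04) and Bcl2a1d by 1.41 (SE 0.155, limma adjusted p = 1.5e-04). Against EV+IL-2, Bcl2a1b was higher by 1.46 in 3A10t and by 1.37 in 1G12t, and Bcl2a1d by 1.65 and 1.80 (limma adjusted p of 2.1e-04 or less). The 3A10t difference from EV no IL-2 did not pass for either copy (limma adjusted p = 0.40 and 0.33). The copies are nearly alike in sequence, since 57.6% of the 768 stretches of 50 bases in the annotated Bcl2a1b transcript also stand in Bcl2a1d, so how reads were divided between them is uncertain.

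**Figure D5:**
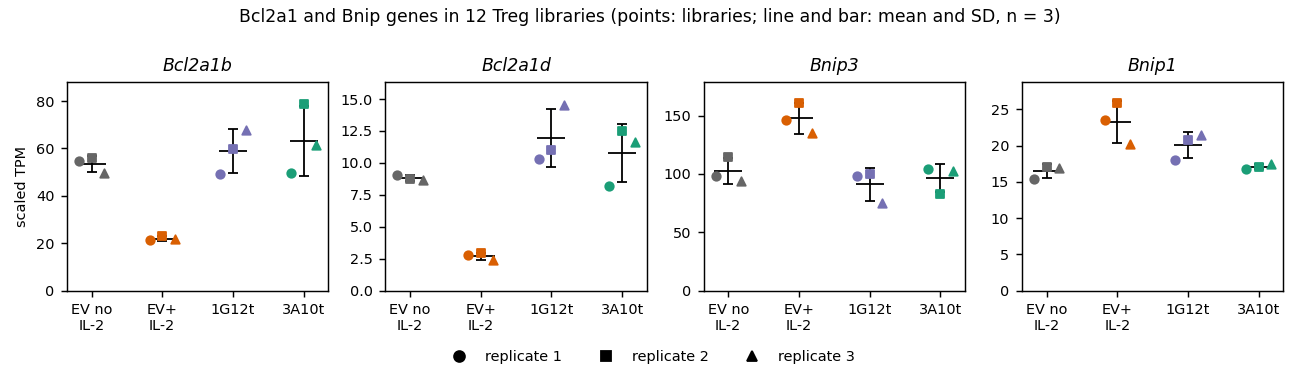
Scaled TPM (vertical axes, each from 0) of Bcl2a1b, Bcl2a1d, Bnip3 and Bnip1 in the 4 groups, with libraries as points and the mean and SD of 3. The EV+IL-2 libraries of Bcl2a1b lie at 22.9 TPM or below and those of the other groups at 49 TPM or above.

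The genes called higher in that list were Bnip3 and Bnip1. Bnip3, which marks mitochondria for autophagy, averaged 102 ± 11.1 TPM in EV no IL-2 and 148 ± 13.1 TPM in EV+IL-2 (log2 difference 0.53, limma adjusted p = 0.027). Bnip1 averaged 16.5 ± 0.932 and 23.3 ± 2.86 TPM (0.47, limma adjusted p = 0.011). Its relative Bnip3l, named after its value was seen because it is the fifth of the 5 called, fell by 0.35 on the log2 scale (limma adjusted p = 0.045). Under 26 alternative fits, Bnip1 passed in 23, Bnip3 in 15 and Bnip3l in 11, and Bcl2a1b and Bcl2a1d in all 26. In 3A10t and in 1G12t set against EV no IL-2, 0 of the 11 passed with limma.

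A further list of 11 held genes that act once the mitochondrial outer membrane has opened, and Vdac1, Vdac2 and Vdac3, channels of that membrane. Among the 11, 3 rose in EV+IL-2 against EV no IL-2 and 0 fell with limma. Diablo, which encodes Smac, an antagonist of caspase inhibitors, averaged 93.8 ± 4.32 TPM in EV no IL-2 and 146 ± 6.59 TPM in EV+IL-2 (0.64, limma adjusted p = 5.0e-04). Cycs, cytochrome c, and Vdac1, a channel of the outer membrane, rose by 0.40 and 0.29 (limma adjusted p = 0.049 and 0.016). Diablo passed under all 26 alternative fits, Vdac1 under 19 and Cycs under 7. The other 8 genes did not pass. Cytochrome c and the channels also serve respiration and metabolite exchange in living cells.

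Of 14 transcription factors known to act on the family, 13 could be tested, and in EV+IL-2 3 rose and 2 fell with limma. E2f1 averaged 3.33 ± 0.507 TPM in EV no IL-2 and 9.92 ± 3.13 TPM in EV+IL-2 (1.29, limma adjusted p = 0.0043), and Myc 313 ± 24.5 and 542 ± 25.4 TPM (0.79, limma adjusted p = 0.0049). Nfkb1, named after its value was seen as the fifth of the 5 called, rose by 0.60 (limma adjusted p = 0.027). The factors that carry the IL-2 signal to the nucleus were lower in RNA, with Stat5b at 127 ± 5.79 and 76.1 ± 5.13 TPM (−0.73, limma adjusted p = 8.6e-04) and Stat5a at 53.2 ± 1.55 and 33.7 ± 0.85 TPM (−0.65, limma adjusted p = 0.0079). Of the 26 alternative fits, Stat5b passed in 25, Stat5a and Myc in 24 and Nfkb1 in 17, and E2f1 in 23 of the 25 that kept it.

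Of 20 kinases, ubiquitin ligases and other regulators of the family's proteins, 1 rose and 1 fell in EV+IL-2 with limma, a share under the 13.3% of all genes tested. Ywhab, a 14-3-3 protein of the kind that holds phosphorylated Bad, rose by 0.36 (limma adjusted p = 0.028), and Btrc, a ligase subunit, fell by 0.32 (limma adjusted p = 0.020), which held under 15 and 18 of the 26 alternative fits. Against EV no IL-2, in either 3A10t or 1G12t, 0 genes of these 3 lists passed with limma.

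Between the tethers 4 of the 55 genes tested in the 4 lists passed with limma, 7.27%, where 4.27% of all genes tested did. Trp53, which encodes p53 and acts on Bax, Bbc3 and Pmaip1, averaged 246 ± 11 TPM in 3A10t and 201 ± 3.65 TPM in 1G12t (0.29, adjusted p = 0.041), and the channel gene Vdac3 181 ± 18 and 135 ± 11.1 TPM (0.41, adjusted p = 0.043). Huwe1, a ubiquitin ligase for Mcl1, averaged 18.2 ± 0.768 and 26.7 ± 3.23 TPM (−0.52, adjusted p = 0.044), and Usp9x, a deubiquitinase that spares Mcl1, 11.9 ± 3.54 and 19.5 ± 0.938 TPM (−0.71, adjusted p = 0.043). All lay close to the threshold, and each passed under 7 or 8 of the 26 alternative fits. Leaving out, for example, EV no IL-2 replicate 1 took their adjusted p-values to between 0.058 and 0.063, and leaving out 3A10t replicate 2 to between 0.075 and 0.11.

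Genes whose levels ran most like those of Bcl2 and Bcl2l11 were sought among 10041 genes with a mean of at least 5 TPM. For Bcl2 they were Chd9 (Pearson's r = 0.97), Gm37881 (0.96) and Fsd1l (0.94) over the 12 libraries. For Bcl2l11 they were Tnfsf8, Nhlrc2 and Cnot6l, each at 0.91. These are the highest values of a long search over libraries that share sorts and groups, and are given as a description.

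Several members share their place in the genome with other annotated genes, which matters because the counting was not stated to use strand. On the opposite strand, Bcl2 overlaps the antisense gene D630008O14Rik, Bak1 overlaps Ggnbp1, Bid overlaps Bcl2l13 and Gm17812, and Bad overlaps Gpr137. On its own strand, Bcl2 overlaps Gm37053 and Mir3473f, Bid overlaps Gm44260 and Bax overlaps Gm45808. Reads from such pairs cannot be fully told apart.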

How the data were processed

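RNA was measured in 12 Treg libraries, 3 in each of 4 groups taken from the sample labels. The deposited values are TPM per gene symbol. To make them, the authors trimmed reads of 50 bp with cutadapt 1.18, aligned them to mm10 with STAR 2.5.3 and estimated expression with RSEM 1.3.0 (versions from the submitters' processing notes). The authors tested counts with DESeq2 1.26, and those counts were not used here. Since TPM carry no read depth, errors come from replicate cultures alone.

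TPM were divided by median-of-ratios factors, and 15043 genes with a mean of at least 1 TPM were tested with limma 3.58.1 in R 4.3.3 (trended eBayes) after adding a pseudocount of 1 to the scaled TPM and taking log2. The fit held every library, 4 group means and no block, and gave 6 comparisons. Fold changes are on that scale, which understates changes of low genes. A gene was called at a Benjamini-Hochberg adjusted p under 0.05. The code was tested on simulated data. Positions came from GENCODE M21 (GRCm38), promoters from RefSeq, found for 9 of 10 members. Figures used matplotlib 3.10.9 in Python 3.11.15.

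The members and the lists were chosen with earlier results of these data known. The text names all members, and of each further list up to 4 called genes per comparison with EV no IL-2 or between the tethers, by size of change, and the 3 genes most correlated with Bcl2 and with Bcl2l11. Some genes of the list of steps after the outer membrane opens are not reported here and were left out of its counts. The labels pair the libraries, since a replicate number marks a shared sort. Over the 18 pairs with the same number, deviations from the group means correlated at 0.041 on average (−0.11 to 0.15), beside −0.020 for pairs with different numbers. The blocked value stands beside a result where it changed a call or a count. Alternatives were another pseudocount, filter, scaling or fit, a correction for transcript length by lowess, and each library left out. Leaving out 1 sort from every group was added after the data were seen.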

Additional observations from a re-analysis of the deposited data

How the results depend on the processing

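Over 58 named differences and 26 alternatives, 1263 values kept their direction and side of limma's threshold, 197 lost a call, 34 gained one and 9 changed direction. The 9 were Bcl2l1 in 3A10t against EV no IL-2 (−0.046, TPM as deposited) and in 1G12t against EV no IL-2 (0.021, quantile normalization), Bcl2 and Bcl2l1 in 3A10t against 1G12t (−0.028 and −0.044, TPM as deposited), and differences of Mcl1 and Bcl2l11 with libraries left out (Mcl1 from −0.68 to 0.076 in EV+IL-2 and from −0.43 to 0.21 in 1G12t, the latter 0.066 without replicate 2 of every group, and Bcl2l11 in 3A10t 0.016 against EV no IL-2 without replicate 2 of every group and 0.018 against 1G12t without replicate 3 of every group). TPM as deposited moved the median of all genes in 3A10t against 1G12t from −0.02 to −0.18, and against EV no IL-2 from 0.03 to −0.09.

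For members called, the replicate block gave 2 in 3A10t against EV+IL-2 and changed no other count of called members by over 1.5 times, and length correction with the replicate block gave 1 in 3A10t against EV no IL-2, 1 against 1G12t and 3 against EV+IL-2. Of all genes, length correction with the block called 1.95%, 3.66% and 25.1% in those comparisons. TPM as deposited gave 1 in 3A10t against 1G12t (9.28% of all genes) and 3 against EV+IL-2 (23.2%). In 3A10t against EV+IL-2 a pseudocount of 0.1 gave 3, a pseudocount of 5 gave 2, no filter 4, a mean of at least 5 TPM 2, quantile normalization 2 and length correction 2, where 21.7% to 31.6% of all genes were called (31.6% with no filter, 23.4% as reported). Length correction, alone or with the block, lost Bak1 there and gained Bcl2l1 and Bax (with the block also Pmaip1), and the member it gained with the block in 3A10t against 1G12t was Bcl2. At the authors' threshold 3A10t against EV no IL-2 had 1 with only the 6 libraries compared, 2 with the replicate block, 1 with length correction and 2 with both. There, 1G12t against EV no IL-2 had 1 on TPM as deposited, and 3A10t against 1G12t had 0 with a pseudocount of 5, a mean of at least 5 TPM, quantile normalization or only 6 libraries. Also at that threshold, 3A10t against EV+IL-2 had 0 with a mean of at least 5 TPM, 3 on TPM as deposited, 2 with quantile normalization and 2 with the replicate block, and 1G12t against EV+IL-2 had 1 on TPM as deposited and 1 with quantile normalization. The share of all genes at the authors' threshold was not counted under these alternatives. The causes were not tested.

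With libraries left out, members called ran from 0 to 4 in EV+IL-2 against EV no IL-2 (0 without replicate 1 of every group), 0 to 2 in 3A10t, 0 to 0 in 1G12t, 0 to 2 in 3A10t against 1G12t, 0 to 4 in 3A10t against EV+IL-2 and 1 to 3 in 1G12t against EV+IL-2. The share of all genes called ran, in that order, from 5.15% to 18.2%, 0.113% to 23.1% and 0.0199% to 0.199%. In the last 3 comparisons it ran from 0.226% to 27.3%, 7.25% to 34.2% and 8.17% to 25.8%. At the authors' threshold the ranges of members were 2 to 4, 0 to 2, 0 to 1, 0 to 1, 0 to 2 and 1 to 3, and the share of all genes was not counted. With 1 sort left out of every group, 8 libraries remain. TPM keep no depth, so counting error could not be separated from the spread between cultures.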
